A study of Saccharomyces cerevisiae with 36 samples.

Results

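The comparison described here set yeast cells without RRP6 against the wild type (WT) after 10 min at 42 °C. It was made of every library titled for the rrp6 deletion or the WT at that time, 3 on each side, so 6 of the 36 libraries of the series. The series holds total RNA sequencing of Saccharomyces cerevisiae, laboratory strain BY4742, as WT, as a strain without MPK1 (listed as SLT2), as a strain without RRP6 and as a strain without both, each before heat and at 2 times in heat. Cells of each group grew in rich medium (YPD) at 25 °C to mid-log phase and were brought to 42 °C with pre-warmed medium. The duration label gives 0, 10 or 45 with no unit and was read as minutes. All groups share the BY4742 background, which has mating type alpha and HIS3, LEU2, LYS2 and URA3 deleted in part or whole. The series design calls the 3 libraries of a group biological replicates, and nothing in the labels says how many clones of the deletion strain were used.

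RRP6 encodes a 3′ to 5′ exonuclease that joins the RNA exosome in the nucleus. With the helicase and poly(A) polymerase complex TRAMP it trims the 3′ ends of small nucleolar RNAs (snoRNAs) and ribosomal RNA, and it degrades cryptic and faulty nuclear transcripts. Transcription that ends through the Nrd1-Nab3-Sen1 complex hands its short products to this enzyme. Heat makes yeast raise chaperone and general stress messages and lower those of ribosome production.

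Of 6600 open reading frames (ORFs) in the files, 6017 had enough counts to be tested. Reads counted to genes ranged from 5055049 to 10134101 in the WT libraries and from 3686847 to 5742005 in the deletion libraries. Levels are given as CPM, counts scaled to a common library size, after scaling by the trimmed mean of M values. Differences are log2 fold changes of deletion over WT with the standard error (SE) of the fit, n = 3 libraries a side, and the words rose and fell are kept for genes with an adjusted p below 0.05 in edgeR's quasi-likelihood test. Within a group, libraries correlated across genes at 0.976 to 0.988 on the log scale, and between groups at 0.933 to 0.957. In bulk RNA a change in how many cells hold a transcript and a change in its amount per cell cannot be told apart.

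RRP6 itself had 101, 105 and 146 counts in the WT libraries A, B and C, and 0, 1 and 0 in the deletion libraries, where a count of 0 allows up to 3. Over the whole series the 18 libraries labelled as lacking RRP6 held 2 counts of it and the other 18 held 40 to 1010 each. The neighbours on chromosome XV were not called at 10 min: PHO80, the gene before it, differed by -0.19 ± 0.15 and ALG6, the gene after it, by -0.00 ± 0.11 on the log2 scale. Of the strain's mating markers, the alpha genes MF(ALPHA)1, MF(ALPHA)2, STE3 and SAG1 together took 0.15% to 0.249% of gene counts in WT and 0.0564% to 0.115% in the deletion, against 0.00355% to 0.00604% for 6 a-cell markers over both groups. MF(ALPHA)2 and SAG1 fell by 1.84 ± 0.38 and by 1.56 ± 0.35 on the log2 scale. Messages of the labelled mating type were thus present in both groups, at unequal levels. Of the a-cell markers MFA1 was called, at -1.39 ± 0.32. Of 5 auxotrophic markers 2, HIS3 and MET17, had enough counts to be tested and 0 were called. MET17 is not among the genes listed as deleted in this strain. HIS3 is, and reads were still counted to it.

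More reads fell outside annotated ORFs without RRP6. They made up 5.35%, 5.56% and 4.22% of singly placed reads in the WT libraries and 11%, 11.2% and 9.77% in the deletion libraries. Each deletion library lay above each WT library, with means of 5.04% ± 0.717 and 10.7% ± 0.775 (SD, n = 3) and a ratio of 2.11. Reads aligned to several places rose further, from 4.84%, 5.20% and 4.94% of all reads in WT to 19.3%, 19.1% and 21.9% in the deletion. The groups did not overlap here either, and the ratio of means was 4.02. For both shares the two-sided exact permutation p was 0.1, the smallest that 3 against 3 libraries can give. These classes are where intergenic transcripts and repeated genes such as the ribosomal DNA would be counted, and which RNAs they held was not analysed here. The ORFs that have no entry in the reference annotation took 0.263% ± 0.0186 of gene counts in WT and 0.278% ± 0.012 in the deletion, a difference of 0.0141 points (exact permutation p = 0.4), and with all reads as the base the difference was -0.0363 points.

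**Figure D1:**
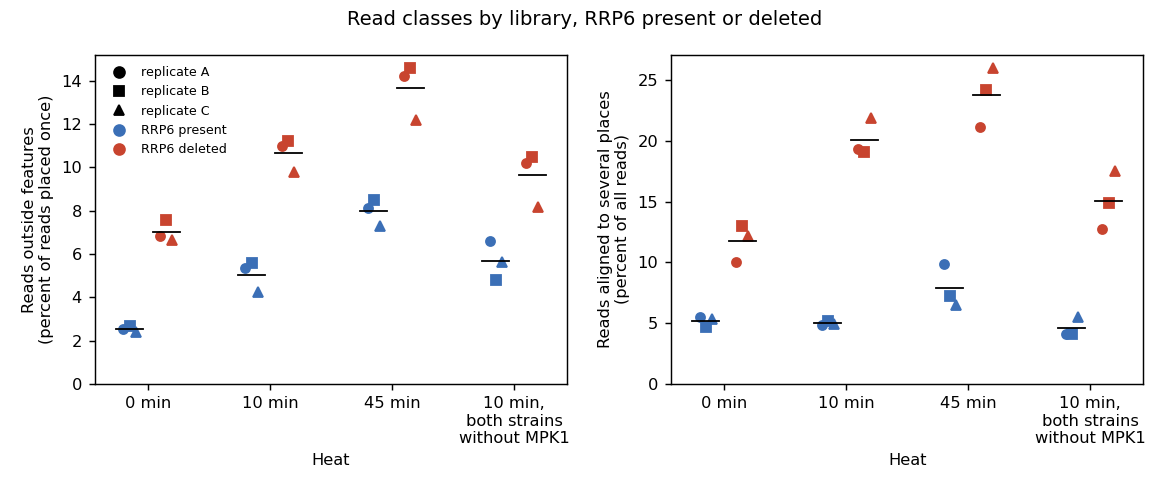
Share of reads outside features (left, percent of reads placed once) and aligned to several places (right, percent of all reads) for each library with RRP6 present (blue) or deleted (red), by time in heat and, at the far right, in strains without MPK1. Symbols mark replicate letters and bars the mean of 3 libraries; at 10 min the deletion libraries lie at 9.77% to 11.2% on the left and 19.1% to 21.9% on the right, above each WT library.

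Across all genes tested, 872 rose (14.5%) and 949 fell (15.8%), 246 and 300 of them by at least 2-fold. In 817 of the risen and 897 of the fallen genes no deletion library overlapped a WT library. Over all 6017 genes tested, called or not, the groups were apart in 1287 in the higher and 1311 in the lower direction. The median over all genes was a log2 difference of 0.02. The first principal component of the 6 libraries held 66% of their variance and separated the groups. Deletion library A lay nearer to WT on it than deletion libraries B and C, and results that rest on that library are marked below.

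Several annotated ORFs that rose lie over a snoRNA or ribosomal RNA gene, RNAs that the nuclear exosome trims or degrades. Among annotated ORFs whose groups were separate and whose mean level was 5 CPM or more, YGL088W and YLR154C-G had the 2 largest rises. YGL088W, at chrVII:345836-346201 on the plus strand, had 40.2, 78.9 and 24.6 CPM in WT and 5403, 5397 and 3895 CPM in the deletion. The groups were far apart, at a log2 difference of 6.69 ± 0.43 (adjusted p = 8.22e-13). Of the 245 bases of SNR10 (chrVII:345986-346230, plus strand), a box H/ACA snoRNA that guides pseudouridine formation in ribosomal RNA, 216 lie inside this ORF. YJL047C-A, at chrX:349044-349178 on the minus strand, had 19.0, 27.5 and 16.4 CPM in WT and 266, 306 and 225 CPM in the deletion. Again no library overlapped the other group, with a difference of 3.69 ± 0.31 (adjusted p = 5.23e-10). It covers the last 49 bases of SNR60 (chrX:349130-349233, minus strand, 104 bases), a box C/D snoRNA that guides methylation, and the sequence just 3′ of it. The R64 sequences are shown because the counted ORFs overlap the snoRNAs. YGL088W starts 5′ of SNR10 and ends before the 3′ end of the snoRNA, so it holds no sequence 3′ of it. Only YJL047C-A, of these ORFs, reaches sequence 3′ of its snoRNA. In SNR10 the capitals are the bases inside YGL088W, and in the SNR60 stretch the capitals are the mature snoRNA and the lower case the rest of YJL047C-A downstream of it.
SNR10: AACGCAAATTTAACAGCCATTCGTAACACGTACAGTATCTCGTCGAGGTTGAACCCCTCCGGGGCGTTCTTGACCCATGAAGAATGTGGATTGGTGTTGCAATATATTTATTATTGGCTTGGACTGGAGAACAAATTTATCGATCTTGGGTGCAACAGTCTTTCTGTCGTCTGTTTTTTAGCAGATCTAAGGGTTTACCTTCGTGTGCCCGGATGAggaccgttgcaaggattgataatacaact
SNR60 and the rest of YJL047C-A: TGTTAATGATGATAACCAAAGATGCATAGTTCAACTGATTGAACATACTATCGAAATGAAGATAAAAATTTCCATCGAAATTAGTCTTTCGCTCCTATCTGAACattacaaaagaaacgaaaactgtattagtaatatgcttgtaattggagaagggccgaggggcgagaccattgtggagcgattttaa

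IRC13, whose last 78 bases lie over the start of the U3 snoRNA gene SNR17A, had 6.88, 9.26 and 6.97 CPM in WT and 43.0, 72.4 and 44.0 CPM in the deletion. That was a rise of 2.79 ± 0.36 (adjusted p = 8.76e-07), with separate groups. YLR154C-G, which lies inside the 25S ribosomal RNA gene RDN25-2, had 15.8, 31.5 and 1.74 CPM in WT and 1645, 820 and 2126 CPM in the deletion. Its rise of 6.61 ± 0.85 (adjusted p = 8.57e-07) is uncertain, because the ORF is present in 2 identical copies in the reference genome and reads placed in several places were not counted. TAR1, antisense to the same ribosomal RNA, had 0.417, 0 and 0 CPM in WT and 0.882, 3.12 and 2.49 CPM in the deletion, and the strand setting of the counting is not given in the sources used here.

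Host genes of intronic snoRNAs went both ways, with 3 of 8 higher and 3 lower (37.5% each), beside 14.5% and 15.8% of all genes. NOG2, which encodes a GTPase of large-subunit ribosome assembly, carries SNR191 in its intron. It had 20.8, 40.7 and 8.94 CPM in WT and 188, 176 and 170 CPM in the deletion. Every deletion library was above every WT library, and the difference was 2.97 ± 0.33 (adjusted p = 9.85e-08). RPL7B and IMD4 also rose, by 1.0 ± 0.28 and 0.82 ± 0.18, while RPL7A, ASC1 and RPS22B fell by 1.09 ± 0.26, by 1.32 ± 0.25 and by 0.96 ± 0.23. EFB1 and TEF4 were not called, at -0.02 ± 0.16 and 0.34 ± 0.23. Whether reads in NOG2 came from its exons or from the intron cannot be read from one count per gene. SNR191 (chrXIV:721938-722211, minus strand, R64, 274 bases) is shown with the ACA that lies 3 bases before its 3′ end in capitals.
SNR191: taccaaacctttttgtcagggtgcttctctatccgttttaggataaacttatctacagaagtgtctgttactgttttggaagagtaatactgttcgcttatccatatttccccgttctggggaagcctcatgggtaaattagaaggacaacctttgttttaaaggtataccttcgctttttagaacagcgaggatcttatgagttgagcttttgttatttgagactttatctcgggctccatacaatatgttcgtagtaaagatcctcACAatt

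These ORFs were grouped after their values were seen: of 17 ORFs over a snoRNA or ribosomal RNA gene 13 passed the filter, 8 of which rose and 3 fell, with a median of 1.0. Genes that start within 500 bases downstream of a snoRNA gene on the same strand moved both ways, 6 of 21 higher and 4 lower (2 without deletion library C) with a median of 0.12. That is 28.6% and 19%, beside 14.5% and 15.8% of all genes. CTO1 had 5.83, 12.3 and 5.81 CPM in WT and 39.7, 25.6 and 29.3 CPM in the deletion, a rise of 2.04 ± 0.24 with separate groups. HEM4, an enzyme of heme synthesis, rose by 1.22 ± 0.17, and FLX1, a mitochondrial carrier, by 1.16 ± 0.17.

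Of 683 ORFs absent from the reference annotation, 302 passed the filter, 65 were called higher (21.5%) and 16 lower (5.3%), beside 14.5% and 15.8% of all genes. Because an ORF at 0 in WT passes only through a group where it is present, these counts are given as a description. YMR013W-A had 0.833, 1.39 and 0.697 CPM in WT and 189, 207 and 147 CPM in the deletion. The log2 difference was 7.60 ± 0.36, given as a description too, since the WT level was near 0. YCL007C had 0, 0.694 and 0.232 CPM in WT and 37.5, 33.7 and 39.7 CPM in the deletion. The ORFs YLR154W-A, YGL109W and YOR082C, had 0 counts in all 3 WT libraries and 3.43 to 8.72 CPM in the deletion libraries. In the other direction YHL006W-A fell from 32.9, 36.1 and 20.7 CPM to 4.63, 7.18 and 4.98 CPM, by 2.42 ± 0.34. Many such ORFs overlap another gene, which was not resolved here for lack of their coordinates.

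Of annotated genes that do not lie over such RNAs and that met the same level and separation, TPO2 had the largest rise. TPO2, a plasma membrane polyamine exporter, had 28.5, 25.7 and 27.4 CPM in WT and 334, 984 and 1144 CPM in the deletion. The WT libraries were close together and deletion library A was the lowest of its group, yet still far above WT, at 4.91 ± 0.62 (adjusted p = 6.71e-07). STP4, a zinc finger protein, rose by 4.04 ± 0.53 and YRO2, a plasma membrane protein, by 3.70 ± 0.45, with deletion library A again the lowest in both. MIG2, a glucose-dependent repressor, had 4.17, 4.40 and 2.67 CPM in WT and 28.2, 49.0 and 60.2 CPM in the deletion. That was a rise of 3.67 ± 0.42 (adjusted p = 1.61e-07). YER053C-A, TDA6 and DAK2, a dihydroxyacetone kinase, rose by 3.45 ± 0.51, 2.87 ± 0.48 and 2.62 ± 0.45.

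By the same level and separation, TIR1 and ASI3 had the largest falls after RRP6 itself. TIR1, a cell wall mannoprotein, had 56.7, 57.6 and 38.5 CPM in WT and 6.17, 4.99 and 6.02 CPM in the deletion, a fall of 3.12 ± 0.27 on the log2 scale (adjusted p = 8.86e-10). ASI3, a subunit of the ubiquitin ligase of the inner nuclear membrane, had 473, 738 and 560 CPM in WT and 84.0, 80.2 and 77.0 CPM in the deletion. The deletion libraries lay within 10% of each other and well below WT, at -2.88 ± 0.30 (adjusted p = 3.35e-08). The phosphate transporter PHO89 fell by 2.87 ± 0.54 and the galactose permease GAL2 by 2.56 ± 0.31. GYP5, which activates a Rab-type GTPase, YMR320W and the maltose activator MAL33 fell by 2.15 ± 0.21, by 2.03 ± 0.43 and by 2.00 ± 0.21.

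**Figure D2:**
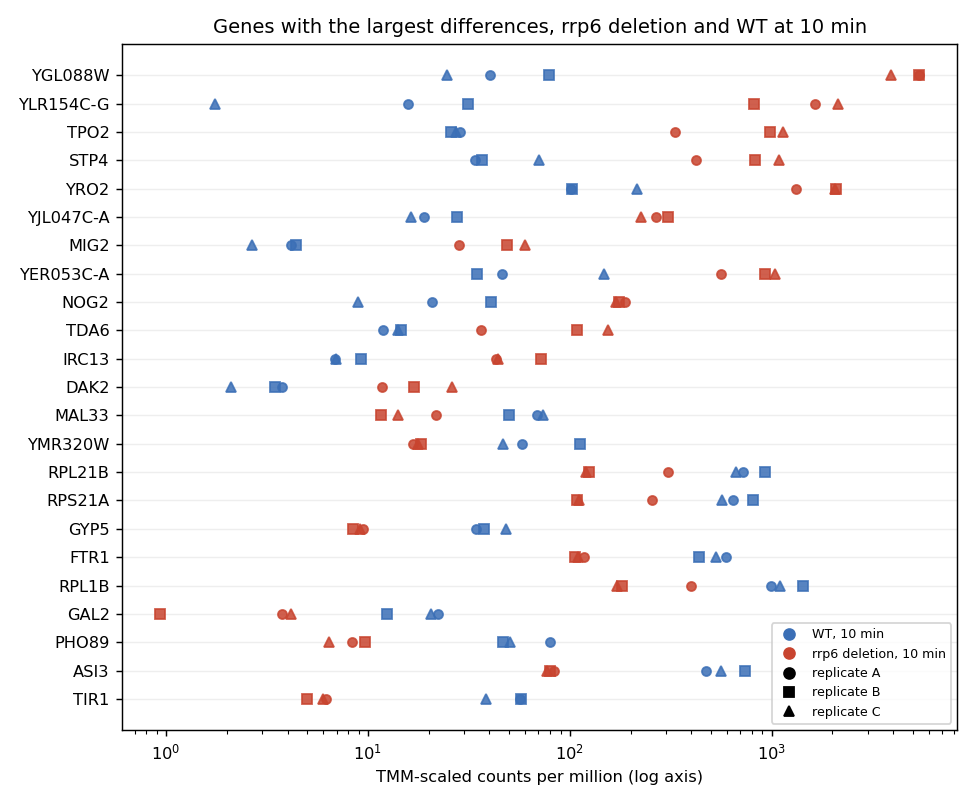
TMM-scaled CPM (log axis) in each of the 6 libraries for the 12 risen and 11 fallen annotated genes with the largest differences, RRP6 left out; WT is blue, the rrp6 deletion red and symbols mark replicate letters. In each gene the groups are apart, from YGL088W at 3895 to 5403 in the deletion down to TIR1 at 4.99 to 6.17.

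Ribosomal protein genes, which encode the proteins of the cytosolic ribosome, were the largest group that fell. Of 138 tested, 128 fell and 4 rose, against 15.8% and 14.5% of all genes, and their median was -1.42. Together they took 10.2% to 14% of gene counts in the WT libraries and 3.3% to 6.73% in the deletion libraries. RPL1B had 992, 1427 and 1103 CPM in WT and 400, 181 and 171 CPM in the deletion. Its groups were separate and it fell by 2.23 ± 0.33 (adjusted p = 6.16e-06). RPS21A and RPL21B fell by 2.09 ± 0.32 and by 2.07 ± 0.38, and RPL30, which represses the splicing of its own message, fell by 1.86 ± 0.34. Deletion library A was the highest of the 3 deletion libraries in each of the 128 fallen genes, and without it the median was -1.81 with 130 called lower.

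Many of these genes come in near-identical pairs whose shared reads the counting set aside, so single members are uncertain. Of the 20 genes with no A or B copy in their name 19 fell and 0 rose, with a median of -1.52, and of the 118 named A or B 109 fell and 4 rose, with a median of -1.41. The 4 that rose were RPL18B at 1.21 ± 0.26, RPL7B, RPS9A at 0.80 ± 0.21 and RPL9B at 0.71 ± 0.18. Of the 89 ribosomal protein genes with an intron 82 fell and 3 rose, while of 173 other intron-containing genes 21 rose and 17 fell, with a median of 0.01. For these 173 that is 12.1% and 9.83%, below the 14.5% and 15.8% of all genes. Among those DBP2, an RNA helicase, rose by 1.37 ± 0.21.

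Ribosome assembly factors rose more often than they fell. Of 37 tested, 11 rose (29.7%) and 1 fell (2.7%), against 14.5% and 15.8% of all genes, with a median of 0.43. RRP5, which acts in early pre-ribosomal RNA cleavage, had 56.5, 89.1 and 39.5 CPM in WT and 146, 177 and 174 CPM in the deletion, a rise of 1.44 ± 0.25 (adjusted p = 7.8e-05) with separate groups. DIP2 and RRP12 rose by 1.15 ± 0.19 and 1.10 ± 0.25, and FAF1 fell by 0.79 ± 0.21. NOP56, a core protein of box C/D snoRNA particles, was not called and stood at -0.48 ± 0.32. The count of risen members was 17 without WT library B, 5 without WT library C, 8 without WT library A or deletion library A and 7 in a fit of the 6 libraries alone.

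Of 17 iron uptake genes, targets of the factor Aft1, 11 fell (64.7%, against 15.8% of all genes) and 0 rose, with a median of -1.16. FTR1, the high-affinity iron permease, had 596, 439 and 529 CPM in WT and 117, 106 and 110 CPM in the deletion. The deletion libraries were nearly level and far below WT, at -2.23 ± 0.17 (adjusted p = 3.35e-11). TIS11, which binds messages of iron-using proteins, the siderophore transporter ARN2 and the wall mannoprotein FIT3 fell by 1.77 ± 0.29, by 1.66 ± 0.21 and by 1.65 ± 0.43.

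Of 24 ergosterol synthesis genes 17 fell (70.8%, against 15.8% of all genes) and 0 rose, with a median of -0.64. ERG3, the sterol C-5 desaturase, had 291, 300 and 301 CPM in WT and 110, 88.3 and 89.1 CPM in the deletion, a fall of 1.63 ± 0.17 (adjusted p = 2.03e-08). ERG25, a sterol methyl oxidase, fell by 1.44 ± 0.13, and the mevalonate kinase ERG12 and the sterol isomerase ERG2 by 1.17 ± 0.14 and by 1.17 ± 0.16. Of 10 histone genes 5 fell (3 without deletion library C) and 0 rose, among them HTB2 for H2B, by 1.06 ± 0.16, and the linker histone HHO1, by 0.94 ± 0.21.

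Of 29 general stress genes under the factors Msn2 and Msn4, 12 rose, 0 fell and 17 were not called, with a median of 0.61, and together they took 2.03% to 3.19% of gene counts in WT and 4.83% to 5.40% in the deletion. HSP12, a small membrane-associated stress protein, had 1630, 814 and 2284 CPM in WT and 6455, 6749 and 8208 CPM in the deletion. Its WT libraries spread widely, with B the lowest, but stayed below the deletion, at 2.18 ± 0.48 (adjusted p = 0.000969). GPH1, glycogen phosphorylase, HXK1, a hexokinase, and DDR2 rose by 2.11 ± 0.29, 1.88 ± 0.35 and 1.61 ± 0.33. Of 27 chaperone genes under the heat shock factor Hsf1, 5 rose (18.5%) and 1 fell (3.7%), against 14.5% and 15.8% of all genes. Their median was 0.12, beside 0.02 over all genes. Together they took 24.9% to 25.3% of gene counts in WT and 26.7% to 29.6% in the deletion. SSE2, an Hsp70 exchange factor, had 602, 568 and 794 CPM in WT and 1739, 2197 and 2429 CPM in the deletion, a rise of 1.70 ± 0.19. The disaggregase HSP104 and the Hsp70 gene SSA4 were not called: HSP104 stood at -0.07 ± 0.25 and SSA4 at 0.32 ± 0.25.

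**Figure D3:**
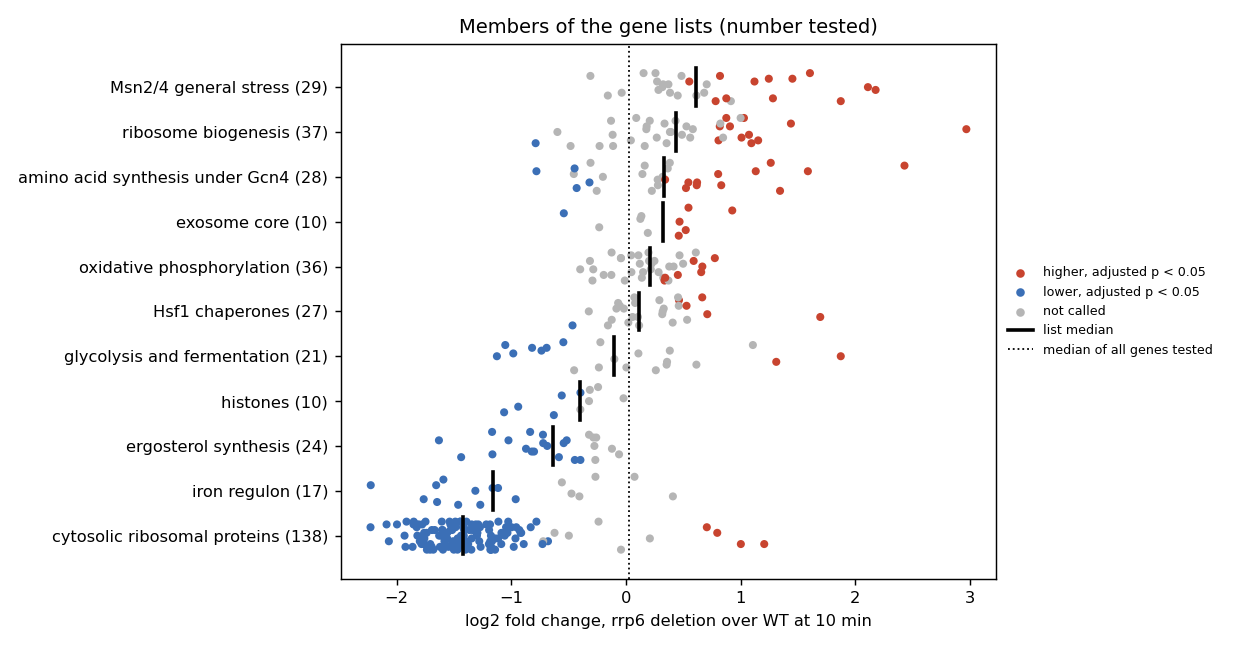
Log2 fold change of deletion over WT at 10 min for each tested member of 11 gene lists, red where higher, blue where lower and grey where not called; black bars are list medians, the dotted line the median of all genes, and the vertical scatter within a list has no meaning. The ribosomal protein, iron and ergosterol lists lie mostly to the left with medians of -1.42, -1.16 and -0.64, and the general stress list to the right with a median of 0.61.

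Stretches upstream of 3 leading genes are shown because Rap1, Aft1 and Msn2/4 are known regulators of ribosomal protein, iron uptake and general stress genes. Capitals mark the motif ACCCANACA of Rap1 in RPL1B (chrVII:254274-254393, plus strand), GCACCC of Aft1 in FTR1 (chrV:462043-462162, minus strand) and AGGGG of the stress response element in HSP12 (chrVI:106784-106903, plus strand), searched on both strands of R64. The Rap1 and Aft1 motifs can overlap in ACCC. In each stretch only the motif named for that gene is marked. The RPL1B stretch also holds GGGTGC, which is GCACCC on the other strand, left in lower case. Of the matches within 500 bases, 1 of 2 is shown for FTR1 and 3 of 5 for HSP12.
RPL1B upstream: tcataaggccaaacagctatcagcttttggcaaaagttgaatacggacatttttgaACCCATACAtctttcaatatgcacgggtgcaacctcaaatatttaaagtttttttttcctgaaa
FTR1 upstream: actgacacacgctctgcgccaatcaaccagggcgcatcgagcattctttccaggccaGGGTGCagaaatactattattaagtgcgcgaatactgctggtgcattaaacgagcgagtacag
HSP12 upstream: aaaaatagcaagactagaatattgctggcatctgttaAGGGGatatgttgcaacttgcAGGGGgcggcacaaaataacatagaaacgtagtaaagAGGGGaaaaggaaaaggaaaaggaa
Within 500 bases before the start codon, ACCCANACA was found in 45 of 138 ribosomal protein genes (32.6%) and in 178 of 5715 genes (3.11%). GCACCC was found in 16 of 17 iron genes (94.1%) and 435 genes (7.61%), and AGGGG in 29 of 29 general stress genes and 1985 genes (34.7%). A match is a description of the letters only.

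Genes of the exosome itself moved by less than 2-fold. Of the 10 core subunits 5 rose (50%) and 1 fell (10%), beside 14.5% and 15.8% of all genes. RRP43 had 48.3, 54.1 and 54.9 CPM in WT and 84.5, 102 and 113 CPM in the deletion, a rise of 0.93 ± 0.11 (adjusted p = 1.96e-07) with separate groups. RRP4 and RRP42 rose by 0.55 ± 0.10 and 0.52 ± 0.14, RRP45 and CSL4 by 0.47 ± 0.14 and 0.46 ± 0.14, and SKI6 fell by 0.54 ± 0.17. The catalytic subunit DIS3 was not called, at 0.13 ± 0.10. Some of these calls rested on single libraries: RRP45 was not called without WT library C or deletion library B, CSL4 without WT library C or deletion library A, and SKI6 without WT library B or deletion library C, with adjusted p from 0.0545 to 0.0903. Of 8 cofactors none but RRP6 was called in the main fit, with the TRAMP helicase MTR4 at 0.70 ± 0.28 (adjusted p = 0.0582) and the poly(A) polymerase TRF5 at 0.44 ± 0.17 (adjusted p = 0.0524). MTR4 passed the threshold without WT library B (adjusted p = 0.00877) and with a replicate block (adjusted p = 0.0224), and TRF5 passed it in 7 alternatives, with DESeq2 among them (adjusted p = 0.0339).

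NRD1, whose message is a known target of its own termination pathway, had 45.2, 71.5 and 21.9 CPM in WT and 121, 77.1 and 76.6 CPM in the deletion. The groups were separate but close, at 1.02 ± 0.35 (adjusted p = 0.026), and the adjusted p was 0.0662 without WT library A, 0.172 without WT library C and 0.139 without deletion library A. PCF11, a termination factor, fell by 0.67 ± 0.15, and NAB3 and SEN1 were not called, at 0.13 ± 0.18 and 0.25 ± 0.18. Of 6 nucleotide genes under attenuation IMD4 rose and the other IMP dehydrogenase genes IMD3 and IMD2 fell, by 1.34 ± 0.16 and by 0.61 ± 0.22. These genes resemble each other closely, so their counts are uncertain, and IMD2 was not called without WT library A or B or deletion library A or C (adjusted p from 0.0512 to 0.117). Of 19 genes of nuclear messenger RNA binding and export, NAB2 and NPL3 rose, by 0.48 ± 0.12 and 0.41 ± 0.14, and HRP1 and SUB2 fell by 1.31 ± 0.26 and by 0.64 ± 0.13. That is 10.5% each way, below the 14.5% risen and 15.8% fallen of all genes. NPL3 was not called when any single library other than deletion library A was left out (adjusted p from 0.0571 to 0.138). Of 25 genes of cytoplasmic decay 2 rose (8%) and 4 fell (16%), the falls near the 15.8% of all genes. None moved by more than 0.53 ± 0.12, the value of the deadenylase subunit POP2. Of the 4 that fell, LSM6, SKI7, PAN3 and PAN2, 0 were called without WT library A, and LSM6 and PAN3 lost the call in 8 alternatives each.

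In metabolism, amino acid genes under Gcn4 rose more often than they fell, 12 against 4 of 28 with a median of 0.33, and the 4 were 2 without WT library B or deletion library B or C. That is 42.9% and 14.3%, beside 14.5% risen and 15.8% fallen of all genes tested. The arginine enzymes ARG3 and ARG1 rose by 1.59 ± 0.22 and 1.34 ± 0.27, and THR1 of threonine synthesis fell by 0.78 ± 0.17. Of 21 genes of glycolysis and fermentation 7 fell (33.3%), led by TDH2 and GPM1 at -1.13 ± 0.34 and -1.05 ± 0.24, and HXK1 and ENO1 rose (9.52%). ENO1 was not called without WT library A or B or deletion library B or C (adjusted p from 0.0657 to 0.176). Of 36 genes of oxidative phosphorylation 7 rose (19.4%, near the 14.5% of all genes, and 2 genes without WT library B) and 0 fell. RIP1 of the cytochrome bc1 complex stood at 0.78 ± 0.19. Of 11 citric acid cycle genes CIT1, citrate synthase, rose by 1.19 ± 0.22 (9.09% of the list) and 2 fell (18.2%).

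The remaining lists were mixed. Among 24 genes induced by cell wall damage, 6 were called higher (3 without deletion library C) and 3 lower. SLT2, the kinase deleted in the mpk1 strains, had 68.5, 64.8 and 81.3 CPM in WT and 93.7, 168 and 192 CPM in the deletion, a rise of 1.07 ± 0.23 (adjusted p = 0.000861) with separate groups, and the wall proteins CWP1 and NCW2 went apart, at 1.74 ± 0.35 and -1.60 ± 0.25. HXT4 rose by 2.17 ± 0.35 and 3 of 15 tested hexose transporters fell. Of all genes tested 14.5% rose and 15.8% fell. Of 15 phosphate genes 1 rose and 2 fell, of 21 early meiotic genes 2 and 6, of 18 late sporulation genes 0 and 3, and of 34 proteasome genes 2 and 0. These small counts rested on single libraries: 0 late sporulation genes were called lower without deletion library C and 1 without WT library A or B, 0 early meiotic genes were called higher without WT library A or deletion library C, and 1 proteasome gene was called higher in 5 of the 6 fits with a library left out. Of 174 tested genes within 20 kb of a chromosome end 12 rose (6.9%) and 31 fell (17.8%), the falls near the 15.8% of all genes. Most of these 174 genes stood lower in the deletion, 113 below 0 and 61 above, with a median of -0.22. Their summed share of gene counts, which weighs abundant members most, was yet higher, at 1.47% to 1.59% against 0.87% to 1.11% in WT. The phosphate genes were alike, with 12 of 15 below 0 and a median of -0.21. Their summed share was 0.177% to 0.19% in the deletion against 0.119% to 0.122% in WT.

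To ask whether the difference was already there before heat, the same contrast was taken at 0 min in 6 other libraries. There 561 genes were higher and 279 lower without RRP6. Of the genes risen at 10 min 227 were also higher at 0 min (26.0% of the first list, 40.5% of the second), and of those fallen 115 were also lower (12.1% and 41.2%). The difference between both effects was called in 288 genes in the higher direction (4.79%) and 504 in the lower (8.38%), a split of 91 and 721 when libraries were scaled by total counts, where the overall median shifted by -0.17. YGL088W and YJL047C-A were higher at both times, by 7.91 and 5.83 before heat. NOG2 was not, at 0.42 ± 0.29 before heat, and its effects differed by 2.55 (adjusted p = 0.00024). ASI3 stood at -0.01 ± 0.30 before heat and its effects differed by -2.86 ± 0.42 (adjusted p = 2.84e-05). Without WT library B of 0 min the count of genes with unequal effects was 526.

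The iron genes fell further in heat: 9 of 17 had a lower effect at 10 min than at 0 min. For the ribosomal protein genes, with a median of -0.42 at 0 min, 19 of 138 had a lower effect at 10 min and 3 a higher one, but the lower count was 2 to 91 with single libraries left out, lowest without deletion library B or C of 10 min and highest without A, 51 by total counts and 66 in a fit of the libraries compared alone. PHM8, a lysophosphatidic acid phosphatase, was higher without RRP6 at both times, by 4.86 ± 0.42 at 0 min and 1.03 ± 0.27 at 10 min, and ARO10, a decarboxylase of amino acid breakdown, was higher at 0 min, by 1.66 ± 0.27, and lower at 10 min, by -1.28 ± 0.26. For ARO10 the difference of both effects was -2.94 ± 0.38 (adjusted p = 5.01e-06).

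At 45 min, again in other libraries, 1304 genes were higher and 1487 lower. Of the risen genes at 10 min 503 were also higher then (57.7% of the first list, 38.6% of the second), and of the fallen 687 were also lower (72.4% and 46.2%). Effects differed in 425 genes in the higher direction (7.06%) and 368 in the lower (6.12%), which became 151 and 574 by total counts, with the median of all genes moved by -0.23. The total was 377 in a fit of the libraries compared alone, 496 and 520 without deletion library B or C of 45 min and 525 without deletion library C of 10 min. The ribosomal protein median was -1.83 at 45 min. NRD1 was lower at 45 min, by -1.37, where it had been higher at 10 min, and its effects differed by 2.38 ± 0.48 (adjusted p = 0.00162).

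**Figure D4:**
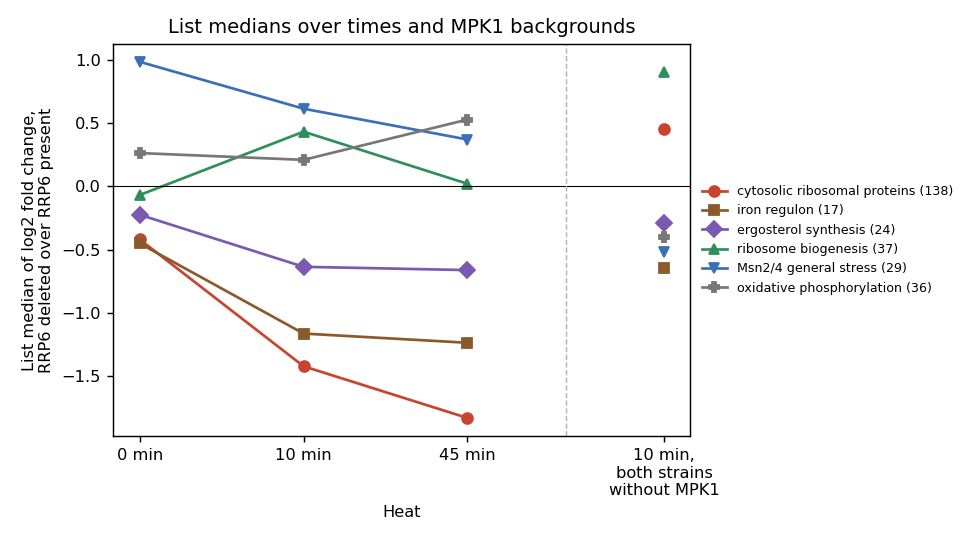
Median log2 fold change of RRP6 deleted over RRP6 present for 6 gene lists at 0, 10 and 45 min and, right of the dashed line, at 10 min in strains without MPK1; each symbol is the median over the tested members of a list, whose number is in the key. The ribosomal protein median goes from -0.42 to -1.42 and -1.83 and is 0.45 without MPK1.

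The same deletion in cells without MPK1 gave a different pattern at 10 min. There 692 genes were higher (11.5%) and 512 lower (8.51%) in the double deletion than in the mpk1 deletion. These counts leaned on single libraries, as the total of 1204 became 584 without double-deletion library B, 603 without mpk1 library B, 1822 without double-deletion library C and 317 (238 higher and 79 lower) in a fit of those 6 libraries alone, and scaling by total counts gave 413 and 615, with the median of all genes moved by -0.11. Of the genes risen at 10 min in the WT background 298 also rose here (34.2% of the first list, 43.1% of the second), and of the fallen 143 also fell (15.1% and 27.9%). YGL088W, YJL047C-A and NOG2 rose here too, by 6.39, 4.14 and 3.75. Reads outside features were again higher, at 9.62% ± 1.25 against 5.68% ± 0.893.

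The difference of the effects between MPK1 backgrounds was called higher without MPK1 in 611 genes (10.2%) and lower in 399 (6.63%), or 339 and 372 by total counts. The total of 1010 became 177 in a fit of the 12 libraries compared alone, 488 without double-deletion library B, 1623 without its library C, 581 without mpk1 library B, 536 without WT library B and 630 without deletion library C. Ribosomal protein genes had a median of 0.45 without MPK1, where 13 rose and 0 fell (92 rose without double-deletion library C and 4 without its library B), and 131 of 138 had a higher effect there than in the WT background. That count was 108 to 135 with any single library left out and 129 by total counts, but 14 in the fit of the libraries compared alone, where the median difference of 1.86 was near the 1.87 of the main fit. RPL1B, which fell in the WT background, stood at -0.00 here, a difference of 2.23 (adjusted p = 0.00174). The starting levels were unequal. Ribosomal protein genes took 3.54%, 2.69% and 3.73% of gene counts in the mpk1 deletion libraries A, B and C. The lowest WT library stood at 10.2%. Their share was 3.3% to 6.73% in the rrp6 deletion and 4.97%, 5.62% and 1.82% in the double deletion. Whether the lower starting level accounts for the unequal effects was not tested.

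General stress genes had 0 higher and 9 lower without MPK1 (4 to 15 lower with single libraries left out, 1 in a fit of those 6 libraries alone), with a median of -0.52, and 18 of 29 had a lower effect there than in the WT background, 9 to 22 with single libraries left out and 4 in the fit of the libraries compared alone. Here too the starting levels were unequal. General stress genes took 5.48%, 6.38% and 5.38% of gene counts in the mpk1 deletion libraries A, B and C. They took 2.82%, 2.03% and 3.19% in WT and 5.25%, 3.87% and 5.77% in the double deletion. HSP12 stood at -0.20 and GPH1 at -0.14 without MPK1, and for GPH1 the difference of effects was -2.25 (adjusted p = 0.00105). TPO2 rose less without MPK1, by 1.84, and STP4 was not called, at 0.62, with differences of -3.07 ± 0.76 and -3.41 ± 0.68. ASI3 stood at 0.08 without MPK1, a difference of 2.96 ± 0.41 (adjusted p = 0.000126). Of 37 ribosome assembly factors 23 rose without MPK1 (12 without library B of either strain and 11 in the fit of those 6 libraries), beside 11 in the WT background. Of 17 iron genes 12 fell without MPK1, 8 without library B of either strain, 5 in the fit of those 6 libraries and 0 when that fit had a replicate block.

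**Figure D5:**
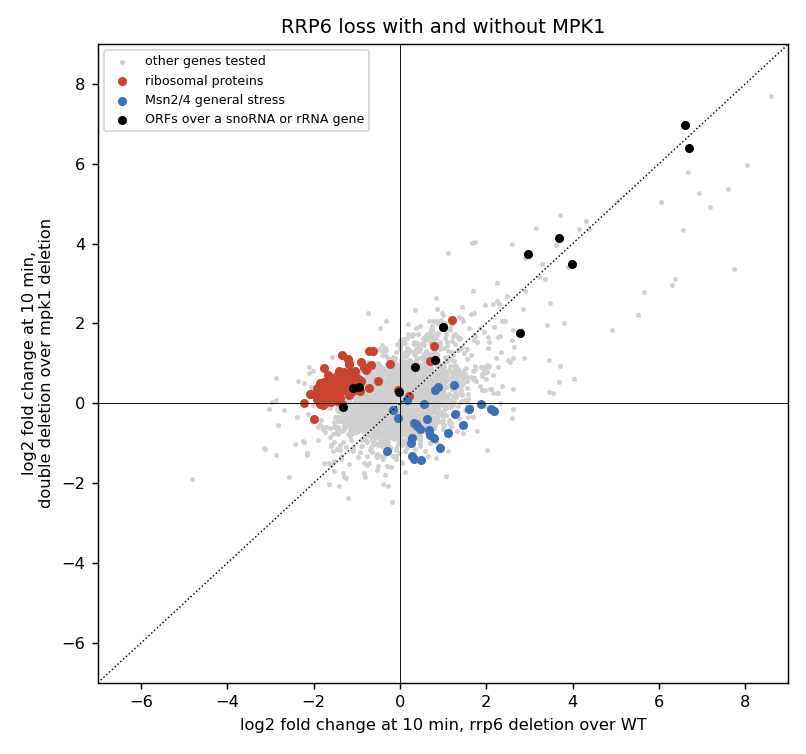
Log2 fold change of RRP6 loss at 10 min in the WT background (horizontal) against that in cells without MPK1 (vertical), from different libraries; each point is a gene tested, RRP6 left out, with ribosomal protein genes red, general stress genes blue, ORFs over a snoRNA or ribosomal RNA gene black, and the dotted line marking equal effects. Ribosomal protein genes lie mostly left of 0 with vertical values around their median of 0.45, and YGL088W lies near the line at 6.69 and 6.39.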

How the data were processed

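Alignment by the authors used HISAT2 2.1.0 on build R64, and counting used HTSeq, per the submitters' processing notes. The authors deposited raw counts, a whole number for each of 6600 ORFs and library, beside 5 summary lines. How strand was handled is not given in the sources used here. Summary lines entered neither depths nor tests; among them reads outside features were 4.22% to 11.2% of singly placed reads, and reads in several places 4.84% to 21.9% of all reads, in the 6 libraries. Of the ORFs 5917 matched the R64 annotation and 683 did not.

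Genes passed edgeR's filterByExpr (minimum count 10, total 15, group of 3). The quasi-likelihood fit of all 36 libraries in 12 groups was made with edgeR 4.0.16, scaled by TMM (0.839 to 0.899 in the 6 libraries), with Benjamini-Hochberg adjustment over 6017 genes at 0.05. The step was tested on simulated data. Read shares were compared by two-sided exact permutation tests. Gene p-values and SEs rest on a spread estimated over all 36 libraries, not on the 6 compared alone. A fit of those 6 alone called 676 genes higher and 766 lower. No p-value or SE covers variation beyond these libraries. The alternatives were DESeq2 1.42.0, its size factors, total counts, other filters, fewer libraries, a replicate block and single libraries left out.

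The members, 24 function lists, 3 marker lists and 6 annotation classes were chosen with earlier results of these data known. Named genes were RRP6 and SLT2, the 12 largest rises and falls among called annotated genes with at least 5 CPM and separate groups, up to 4 called and 2 uncalled members per list, the exosome and termination genes, the 5 largest differences of effects each way, and 3 unannotated ORFs each way. RPL18B, RPS9A, RPL9B, RPS22B, PAN2, FAF1 and THR1 were named after their values were seen.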

Additional observations from a re-analysis of the deposited data

Results flagged for a closer look

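The effect of RRP6 loss at 10 min differed from that at 0 min in 792 genes, from that at 45 min in 793 and from that in cells without MPK1 in 1010, by the test of the difference itself. The values below are differences of log2 fold changes, for the genes with the largest called differences.

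Against 0 min, the effect at 10 min was higher in NOG2 by 2.55, in the kinase gene RCK1 by 2.14, in LSO1 by 2.06, in JJJ3 by 2.05 and in DPI8 by 1.96. It was lower in IRC15 (-4.39), PHM8 (-3.83), RTA1 (-3.82), ARO10 (-2.94) and YOR032W-A (-2.93).

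Against 45 min, the effect was higher in YMR317W by 3.11, in SIF2, a subunit of a histone deacetylase complex, by 2.78, in RPS25A by 2.53, in the arginase gene CAR1 by 2.43 and in NRD1 by 2.38. It was lower in YLR361C-A (-3.85), RPL8A (-3.27), the wall protein gene PIR3 (-2.1), YPR078C (-2.0) and SSP1 (-1.97).

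Between MPK1 backgrounds at 10 min, the effect without MPK1 was higher in ASI3 by 2.96, in YMR320W by 2.82, in RPS9B by 2.65, in RPS26B by 2.55 and in RPL11A by 2.38. It was lower in STP4 (-3.41), EGO4 (-3.19), YER053C-A (-3.18), MIG2 (-3.14) and TPO2 (-3.07). In RPS9B, RPS26B and RPL11A deletion library A lay at 480, 215 and 305 CPM, above 54.3 to 94.1 CPM in deletion libraries B and C.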

How the results depend on the processing

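The counts of 872 risen and 949 fallen genes stayed within 1.5 times under each alternative, at 644 to 992 and 718 to 1044. Deviations from the group means correlated between WT and deletion libraries of the same letter at 0.031, -0.0854 and 0.263 for A, B and C. Unlike letters were not compared, so these values do not decide whether the letters pair the libraries. The share of unaligned reads went with the letter, at 8.0% and 6.0% in A, 11.7% and 10.4% in B and 2.57% and 2.8% in C (WT and deletion). A replicate block over all libraries gave 992 and 1044. With the replicate block in the libraries compared alone, 1331 genes had unequal effects at 10 and 0 min in place of 792, 255 in place of 1010 between MPK1 backgrounds, and 7 in place of 1204 were called in cells without MPK1. A fit of the libraries compared alone gave 377 in place of 793 for 10 against 45 min, 317 for cells without MPK1 and 177 between backgrounds. With single libraries left out the counts were 526 to 946 for 10 against 0 min, 496 to 906 against 45 min, 584 to 1822 without MPK1 and 488 to 1623 between backgrounds. With DESeq2's size factors the 45 min difference split into 521 higher and 282 lower. The share of ORFs absent from the annotation turned from 0.0141 to -0.0363 points with all reads as the base, with fewer reads counted to genes. The cause of the other changes was not tested. Of 3180 values for 214 named genes under alternatives 3029 kept their call, 118 lost it, 33 gained it and 0 reversed. Low counts limit ORFs near 0 in WT.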
